A study of Mus musculus with 6 samples.

Results

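The genes described here are 10 enzymes that make, break or interconvert sphingomyelin and ceramide in mouse embryonic fibroblasts (MEFs). They are the sphingomyelinases Smpd1, Smpd2, Smpd3 and Smpd4, the ceramide synthases Cers2, Cers5 and Cers6, the acid ceramidase Asah1, and the sphingomyelin synthases Sgms1 and Sgms2. Members were chosen by name, by matching the Ensembl identifiers of the table to these symbols in GENCODE M39, and all 10 were found among the 56953 genes of the table. The data were 6 bulk RNA sequencing libraries, 3 labelled WT and 3 labelled GαqKO, of untreated MEFs grown in DMEM with fetal bovine serum. The second label stands for MEFs that the study's methods describe as Gαq/11 knockout, so both related G protein α subunits are meant to be missing. Both kinds of MEFs came from 1 source laboratory, and any difference between the cell lines other than the genotype cannot be told apart from it. The study followed ceramide in these cells with a fluorescent probe and blocked neutral sphingomyelinase with an inhibitor, and the comparison here asks how the transcripts of the enzymes differed between both groups.

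Sphingomyelin is a major lipid of the plasma membrane and is concentrated with cholesterol in rafts and caveolae. Sphingomyelinases cut it into ceramide and phosphocholine, and sphingomyelin synthases run the opposite way, moving phosphocholine from phosphatidylcholine onto ceramide and releasing diacylglycerol. Ceramide synthases join a fatty acid to a sphingoid base, each with its own preference for acyl chain length, and ceramidases split ceramide into sphingosine and a fatty acid. Fibroblasts depend on this cycle for membrane domains, vesicle budding and lysosomal turnover.

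Values are normalized counts, which are gene read counts divided by 1 size factor per library. Log2 fold changes compare the libraries labelled GαqKO with WT on the scale log2(normalized count + 1), and the test was limma with Benjamini-Hochberg adjustment over the 14096 genes that reached 10 normalized counts in 3 or more libraries. Totals per library ran from 11392429 to 11483486 normalized counts, and the reads that could be recovered in 5 of the 6 libraries ran from 9853000 to 12229175. All 10 members passed the filter, with 178 to 2313 reads per library, which leaves a counting error of 2.08% to 7.50%. Gna11, the gene of Gα11, fell from 2148 ± 29.0 normalized counts (SD, n = 3) in WT to 451.6 ± 28.7 (SD, n = 3), whereas Gnaq, the gene of Gαq, rose from 1691 ± 48.5 to 1926 ± 36.0 (SD, n = 3 per group; limma, adjusted p = 0.00212). Since the Gnaq transcript was not lower, the second group is named by its label throughout. The study reported loss of Gαq protein in its GαqKO MEFs from Western blots and immunofluorescence. Transcript counts do not measure protein and do not bear on that result. The 9 fibroblast markers, carried by Vim, Sparc, Fn1, Col1a1 and Col1a2, summed to 102585 to 109234 normalized counts in WT and 74859 to 78192 in GαqKO. They were not alike in both groups: 3 were called higher and 6 lower in GαqKO (limma, adjusted p under 0.05), beside 31.8% and 34.1% of all genes. Col1a1 fell from 16671 ± 1168 to 5774 ± 272 normalized counts (SD, n = 3 per group). Pdgfra had 21.9, 17.5 and 19.3 normalized counts in WT and 2274 to 2356 in GαqKO, and Thy1 was at the floor of 3 normalized counts in each WT library and at 59.0 to 76.5 in GαqKO. The 6 epithelial markers summed to 515 to 541 normalized counts in WT and 10.1 to 23.1 in GαqKO, in WT mostly from Cdh1 and Krt14. Krt8 and Krt18 were also higher in WT, with means of 17.3 and 14.5 normalized counts against 0.721 and 1.01 in GαqKO. Epcam and Krt5 were near 0 in both groups. Muscle and endothelial markers summed to at most 18.5 and 25.4 normalized counts. The blood and macrophage list summed to 104 to 115 in WT and 69.5 to 103 in GαqKO, with Ptprc near 0. The part of the fibroblast, epithelial and macrophage markers in the results below was not tested, and in bulk RNA fewer cells of a type and less RNA per cell cannot be told apart.

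All 10 enzymes differed between the groups at an adjusted p under 0.05 (limma), with Sgms2, Asah1, Cers2 and Smpd1 higher and Smpd3, Smpd2, Cers6, Sgms1, Smpd4 and Cers5 lower in the libraries labelled GαqKO. Over all genes tested, 31.8% were called higher and 34.1% lower, so being called is common in this comparison and the sizes carry more than the count. Beyond 1 or -1 on the log2 scale there was 1 member on each side, Sgms2 higher and Smpd3 lower, against 10.2% and 10.5% of all genes. The values of both groups did not overlap for any of the 10 members, as for 69.6% of all genes. The median size of the log2 fold change was 0.38 over the members and 0.39 over all genes tested, and the signed medians were -0.21 and -0.01.

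**Figure D1:**
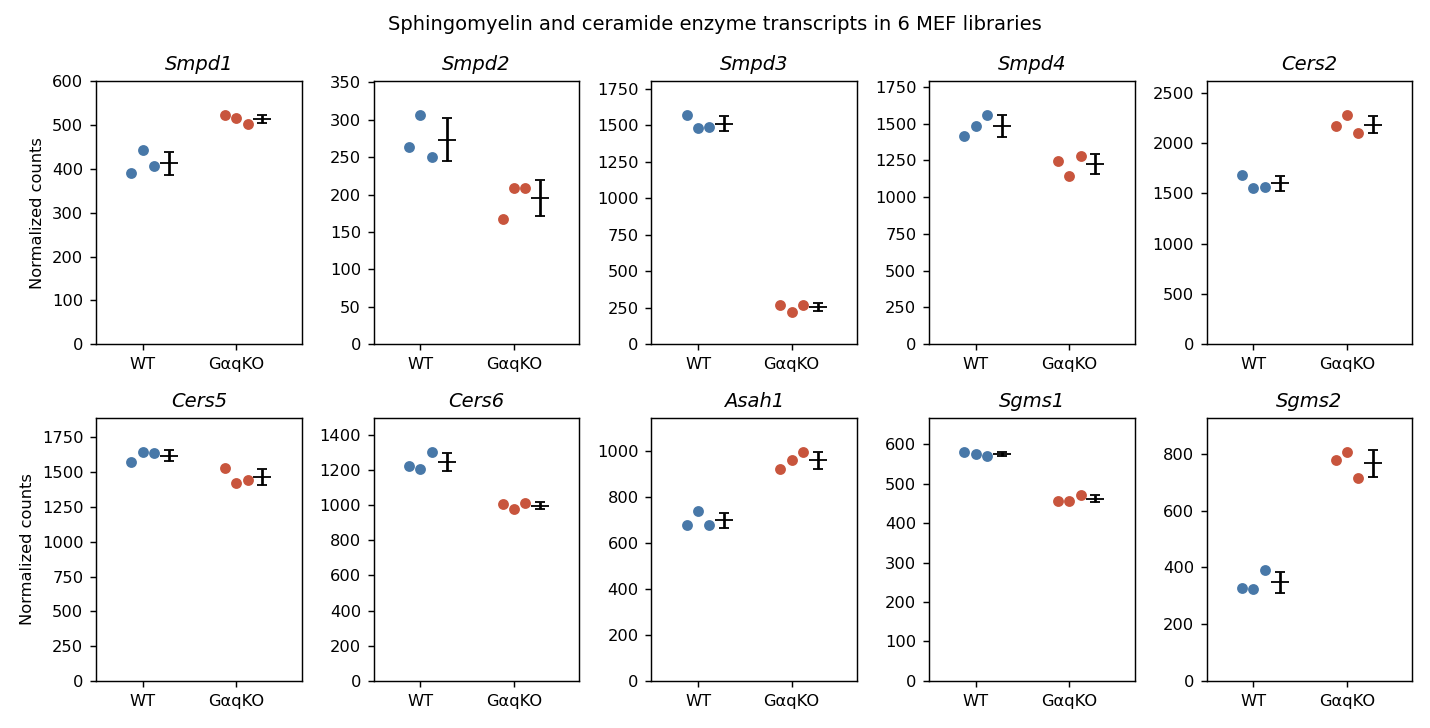
Normalized counts (vertical axes, each starting at 0) of the 10 enzyme genes in the 6 libraries, with 1 point per library, WT in blue and GαqKO in red, and the mean ± SD (n = 3) beside each group. The groups do not overlap in any panel, and relative to their WT level Smpd3 and Sgms2 differ most, with means of 1513 and 253 and of 347 and 766 normalized counts.

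Of the sphingomyelinases, Smpd3 changed most. It encodes neutral sphingomyelinase 2, a membrane enzyme known for releasing ceramide at the plasma membrane and Golgi and for its part in exosome budding. Smpd3 (ENSMUSG00000031906.10) lies on the minus strand of GRCm39 at chr8:106979176-107064670. Its values were 1569, 1481 and 1487 normalized counts in WT and 269.5, 221 and 268 in the libraries labelled GαqKO. Every GαqKO library was thus far under every WT library, and the mean fell from 1513 ± 49.3 to 253 ± 27.6 (SD, n = 3 per group), or to 16.7% of WT. The log2 fold change was -2.58 (standard error, SE, 0.078, 95% confidence interval -2.75 to -2.41, limma adjusted p = 4.55e-12), larger in size than that of 92.3% of the genes tested. With each library left out in turn it stayed between -2.63 and -2.49.

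Smpd1, Smpd2 and Smpd4 changed far less, and not in 1 direction. Smpd1 encodes acid sphingomyelinase, the lysosomal and secreted form whose loss causes Niemann-Pick disease (ENSMUSG00000037049.10; plus strand, chr7:105203564-105207597). It had 391, 442 and 407 normalized counts in WT and 522, 517 and 504 in GαqKO. The lowest GαqKO library was above the highest WT library, and the mean rose from 413 ± 26.3 to 514 ± 9.58 (SD, n = 3 per group), which gives a log2 fold change of 0.32 (SE 0.070, limma adjusted p = 0.00132). Smpd2 encodes neutral sphingomyelinase 1, an enzyme of the endoplasmic reticulum and nucleus (ENSMUSG00000019822.13; minus strand, chr10:41361638-41366481). Its counts were 264, 306 and 250.4 in WT and 167, 209.3 and 209.5 in GαqKO, with GαqKO replicate 1 the lowest and WT replicate 2 the highest. The mean of Smpd2 fell from 274 ± 29.0 to 195 ± 24.4 normalized counts (SD, n = 3 per group), which gives a log2 fold change of -0.49 (SE 0.116, limma adjusted p = 0.00223). Of its exon bases, 51.5% also lie in exons of the opposite-strand genes Mical1 and Ppil6, so its value is less certain than the others. Smpd4 encodes neutral sphingomyelinase 3, found at the endoplasmic reticulum and nuclear envelope (ENSMUSG00000005899.15; plus strand, chr16:17437215-17462692). It had 1413, 1482 and 1556 normalized counts in WT and 1243, 1147 and 1279 in GαqKO. The gap between its groups was about as wide as the range within each, and the mean fell from 1484 ± 71.8 to 1223 ± 68.3 (SD, n = 3 per group), which gives a log2 fold change of -0.28 (SE 0.056, limma adjusted p = 6.08e-04).

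The ceramide synthases moved in opposite directions. Cers2, which prefers very long acyl chains, rose, while Cers6 and Cers5, which prefer palmitoyl chains, were lower. Cers2 (ENSMUSG00000015714.12; plus strand, chr3:95221790-95234060) had 1687, 1554 and 1564 normalized counts in WT and 2172, 2275 and 2102 in GαqKO. Its mean went from 1602 ± 74.1 to 2183 ± 87.4 (SD, n = 3 per group), which gives a log2 fold change of 0.45 (SE 0.050, 95% confidence interval 0.34 to 0.55, limma adjusted p = 3.02e-06). Of the exon bases of Cers2, 39.9% lie inside the spans of the opposite-strand genes Setdb1 and 6330562C20Rik and 29.3% in their exons, which limits its value and the ratios and shares that rest on it. Cers6 (ENSMUSG00000027035.11; plus strand, chr2:68691455-68944627) had 1224, 1206 and 1301 normalized counts in WT against 1005, 976 and 1009 in GαqKO. The GαqKO libraries were close together and all lower, with means of 1243 ± 50.6 and 997 ± 18.0 (SD, n = 3 per group) and a log2 fold change of -0.32 (SE 0.051, limma adjusted p = 8.75e-05). Cers5 (ENSMUSG00000023021.16; minus strand, chr15:99632477-99670783) showed the smallest difference of the 10 genes. It had 1575, 1645 and 1637 normalized counts in WT and 1528, 1422 and 1445 in GαqKO, so GαqKO replicate 1 lay only just under WT replicate 1. The means were 1619 ± 38.3 and 1465 ± 55.6 (SD, n = 3 per group), which gives a log2 fold change of -0.14 (SE 0.048, 95% confidence interval -0.25 to -0.04, limma adjusted p = 0.0168). The Cers5 call did not hold in 6 of 15 alternatives, among them edgeR (adjusted p = 0.142) and DESeq2 (adjusted p = 0.183) on recovered reads of 5 libraries. It was also lost without WT replicate 2 (adjusted p = 0.0648), without GαqKO replicate 2 (0.0715) and without GαqKO replicate 3 (0.0583, limma each).

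Asah1 encodes acid ceramidase, the lysosomal enzyme that hydrolyses ceramide to sphingosine and whose loss causes Farber disease. The gene (ENSMUSG00000031591.15) lies on the minus strand at chr8:41792846-41827851. Its values were 679, 738 and 679.9 normalized counts in WT and 922, 962 and 997 in the libraries labelled GαqKO. All GαqKO libraries were above all WT libraries, with a rise in the mean from 699 ± 34.0 to 960.4 ± 37.4 (SD, n = 3 per group) and a log2 fold change of 0.46 (SE 0.059, 95% confidence interval 0.33 to 0.58, limma adjusted p = 1.07e-05). The lysosomal members Smpd1 and Asah1, which act one after the other, were both higher.

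The sphingomyelin synthases also moved apart. Sgms2, whose enzyme works mainly at the plasma membrane, showed the largest rise of the 10 genes, and Sgms1, whose enzyme works in the Golgi, was lower. Sgms2 (ENSMUSG00000050931.8; minus strand, chr3:131112634-131197172) had 328, 323 and 391 normalized counts in WT and 779, 806 and 713 in GαqKO. Its mean rose 2.21-fold, from 347 ± 38.0 to 766 ± 47.9 (SD, n = 3 per group), which gives a log2 fold change of 1.14 (SE 0.083, 95% confidence interval 0.96 to 1.32, limma adjusted p = 3.53e-08). That interval reaches below 1, and limma's treat test against a log2 fold change of 1 did not call it. Sgms1 (ENSMUSG00000040451.19; minus strand, chr19:32097497-32367505) varied little within groups, at 581, 575 and 571 normalized counts in WT and 456, 457 and 472 in GαqKO. Its mean fell from 576 ± 4.80 to 462 ± 9.10 (SD, n = 3 per group), which gives a log2 fold change of -0.32 (SE 0.061, limma adjusted p = 4.50e-04). Of the exon bases of Sgms1, 42.1% lie inside the spans of the opposite-strand genes Sgms1os1 and Gm59052, and 7.62% in their exons, which limits its value. Smpd3, Smpd4 and Sgms2 have 9.16%, 8.63% and 8.39% of their exon bases in exons of opposite-strand genes, which limits their values likewise.

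**Figure D2:**
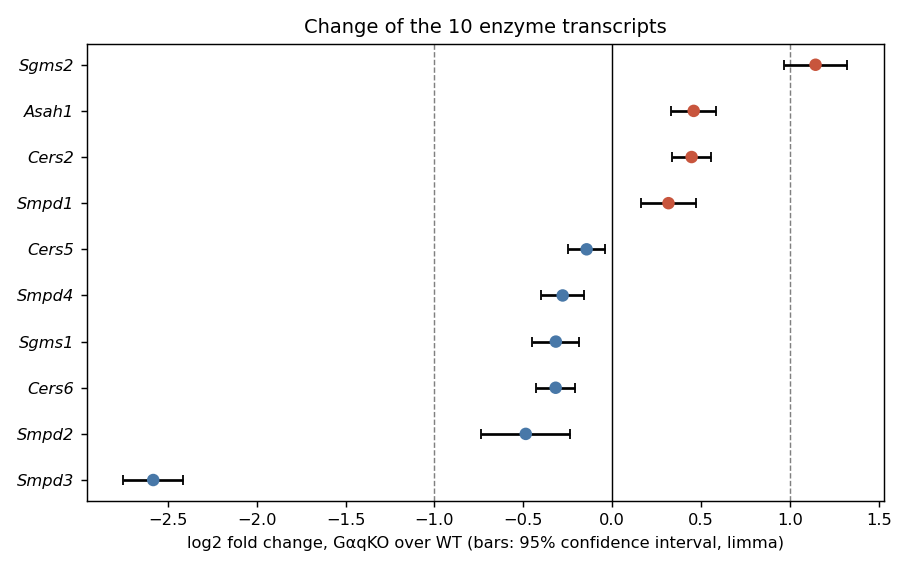
Log2 fold change of the 10 enzyme genes, GαqKO over WT on the log2(normalized count + 1) scale, with points for the limma estimate and bars for the 95% confidence interval (3 libraries per group), red for higher and blue for lower, and dashed lines at 1 and -1. Smpd3 at -2.58 stands far from the other 9 genes, which run from -0.49 to 1.14, and the interval of Sgms2 crosses the line at 1.

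Ratios between enzymes within 1 library do not depend on the scaling between libraries. The log2 ratio of Sgms1 to Sgms2 was 0.82, 0.83 and 0.55 in WT and -0.77, -0.82 and -0.59 in GαqKO. Its mean went from 0.73 ± 0.16 to -0.73 ± 0.12 (SD, n = 3 per group), a difference of -1.46. Relative to Cers2, Cers5 changed by -0.59 and Cers6 by -0.76 on the log2 scale. The ratio of Asah1 to Smpd1 moved by only 0.14, from 0.76 ± 0.03 to 0.90 ± 0.08 (SD, n = 3 per group), since both genes rose. None of the 4 ratios overlapped between groups, and each had p = 0.1 in a two-sided exact permutation test, also after Benjamini-Hochberg adjustment, which is the smallest p that 3 against 3 libraries allow. For the ratios to Cers2 and of Sgms1 to Sgms2 this adds nothing to the single genes. Both genes of each pair already differed without overlap and in opposite directions, which fixes the outcome.

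Levels of different genes were compared per kb of merged exons. In WT the order was Cers5 (335 ± 7.93 normalized counts per kb), Cers2 (311 ± 14.4), Smpd3 (262 ± 8.53), Smpd4 (160.3 ± 7.75), Cers6 (133 ± 5.40), Smpd1 (122 ± 7.74), Asah1 (107 ± 5.23), Smpd2 (59.7 ± 6.32), Sgms2 (47.9 ± 5.24) and Sgms1 (30.7 ± 0.256; SD, n = 3 each). The WT libraries of Cers5 and Cers2 overlapped, as did those of Cers6 and Smpd1, so these neighbours were not separated. In the libraries labelled GαqKO the order was Cers2 (424 ± 17.0 normalized counts per kb), Cers5 (303 ± 11.5), Smpd1 (151 ± 2.82), Asah1 (147 ± 5.75), Smpd4 (132 ± 7.37), Cers6 (107 ± 1.93), Sgms2 (106 ± 6.60), Smpd3 (43.8 ± 4.78), Smpd2 (42.6 ± 5.32) and Sgms1 (24.6 ± 0.485). Here Smpd1 overlapped with Asah1, Cers6 with Sgms2, and Smpd3 with Smpd2. Smpd3 moved from the third place to the eighth, and with the longest coding transcript as length from the fourth to the tenth.

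Within the sphingomyelinases, Smpd3 took 43.4% ± 1.91 of the level per kb in WT and 11.8% ± 1.05 in GαqKO (SD, n = 3 per group). Smpd1 went from 20.2% ± 0.987 to 41.0% ± 1.603 and was the largest of the 4 in every GαqKO library by this length, though Smpd4 was the larger with the longest coding transcript as length. The summed level of the 4 genes went from 604 ± 8.80 to 369.9 ± 9.32 normalized counts per kb (SD, n = 3 per group), 0.613 times WT. The 3 ceramide synthases summed to 779 ± 7.02 and 833 ± 16.3, 1.07 times WT, while Cers2 went from 39.9% ± 1.604 to 50.8% ± 1.497 of that sum. For the sphingomyelin synthases the sum was 78.6 ± 5.05 and 130.3 ± 6.14 normalized counts per kb, 1.66 times WT, and Sgms2 took 60.8% ± 2.67 and 81.1% ± 1.28 of it. The sums of all 3 classes and their ratios to WT hold for merged exon length only. Another length weights the genes differently and changes these values. When the longest coding transcript was used as the length, the share of Smpd3 was 31.0% and 7.61%, and Sgms2 took 42.4% and 67.0%. Which sphingomyelin synthase is the more abundant in WT thus depends on the length used. The direction of both shifts was fixed beforehand, since Smpd3 fell most in its class and Sgms2 rose while Sgms1 fell.

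**Figure D3:**
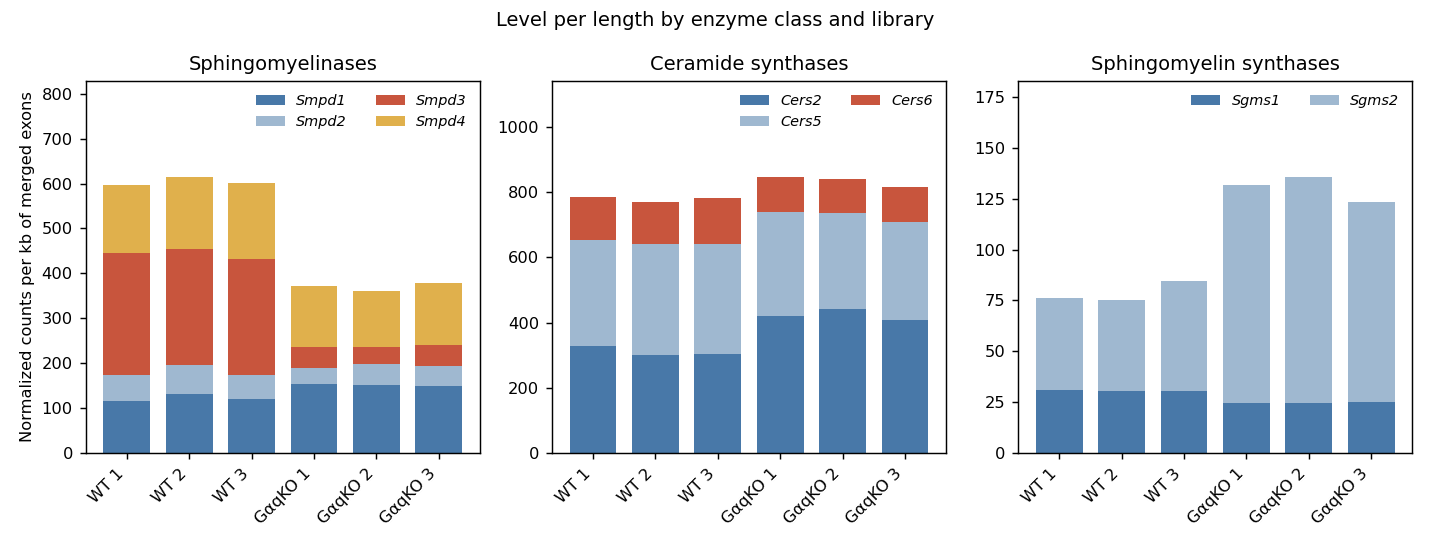
Normalized counts per kb of merged exons (vertical axes, starting at 0) stacked by gene for the sphingomyelinases, the ceramide synthases and the sphingomyelin synthases, with 1 bar for each of the 6 libraries. The red Smpd3 segment shrinks from 262 to 43.8 per kb, and the light Sgms2 segment grows from 47.9 to 106. The ceramide synthase bars are slightly higher in every GαqKO library than in every WT library, with means of 833 and 779 per kb.

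Upstream sequence was taken from the RefSeq promoter table of build GRCm38.p6, which matched 8 of the 10 members with 17 start sites in all. The windows cover bases 250 to 11 before each start. They were searched on both strands for the E-box CACGTG, the GC box GGGCGG and the CCAAT box CCAAT, which may overlap one another. Over the 32851 windows of this length in the table, 5.69% held the E-box, 31.3% the GC box and 33.0% the CCAAT box. Of the members' 17 starts, 4 held the E-box (Cers2, Cers6, Smpd2 and 1 of the 6 starts of Sgms2), 8 the GC box and 6 the CCAAT box. The 3 windows printed are examples, those of Smpd1 and Sgms2, which rose, and Smpd4, which fell, and capitals mark GC and CCAAT boxes on either strand. They show no contrast by direction. Among genes that were lower, the Smpd2 window held 4 GC boxes and 1 E-box, and the Cers5 window held 2 GC boxes. Another start of Sgms2 held 3 GC boxes. A match is a description of the letters and not a site of binding.
Smpd1 (chr7:105554110-105554349, plus strand): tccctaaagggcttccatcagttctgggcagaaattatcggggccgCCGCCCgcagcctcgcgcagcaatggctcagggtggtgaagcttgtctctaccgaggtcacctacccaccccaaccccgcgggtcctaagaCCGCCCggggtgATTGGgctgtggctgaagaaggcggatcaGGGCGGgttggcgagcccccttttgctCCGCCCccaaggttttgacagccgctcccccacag
Sgms2, outermost start (chr3:131491454-131491693, minus strand): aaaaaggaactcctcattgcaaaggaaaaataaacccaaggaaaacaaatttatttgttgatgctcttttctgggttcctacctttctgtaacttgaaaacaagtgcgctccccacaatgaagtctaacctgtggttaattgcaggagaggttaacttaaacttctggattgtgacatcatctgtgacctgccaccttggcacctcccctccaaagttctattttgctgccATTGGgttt
Smpd4 (chr16:17619104-17619343, plus strand): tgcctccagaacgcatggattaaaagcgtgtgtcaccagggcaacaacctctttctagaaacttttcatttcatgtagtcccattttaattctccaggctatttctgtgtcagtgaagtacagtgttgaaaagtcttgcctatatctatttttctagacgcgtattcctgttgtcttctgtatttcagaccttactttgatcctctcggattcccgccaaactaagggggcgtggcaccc
The Smpd1 window held 4 GC boxes and 1 CCAAT box, with 64.6% G and C. The outermost Sgms2 window held 1 CCAAT box close to the start, with 41.2% G and C, and the Smpd4 window held none of the 3 motifs, with 43.8%.

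The other genes of the sphingolipid route were described by 6 lists with 59 genes, of which 42 were tested. Of these, 12 were called higher in GαqKO, 15 were called lower, and 15 were not called (limma, adjusted p under 0.05), beside 31.8% higher and 34.1% lower over all genes. Beyond 1 or -1 on the log2 scale, 2 of the 42 were called higher and 6 lower, beside 10.2% and 10.5% of all genes. The median log2 fold change over the tested genes was -0.0004, and the median size was 0.40, against 0.39 over all genes. Of the genes not tested, 4 were listed at 0 in every library (Sptlc3, Ormdl1, Ormdl2 and Smpdl3a), and for the first 3 every exon base is shared with the span of another gene.

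The list of de novo ceramide synthesis, which also holds the other ceramide synthases, had 8 of 14 genes tested, with 2 higher and 2 lower. Degs1, the desaturase that completes ceramide, rose from 1630 ± 86.9 to 2297 ± 90.6 normalized counts (SD, n = 3 per group), which gives a log2 fold change of 0.50. Cers4, a further ceramide synthase, went from 242 ± 23.8 (SD, n = 3) in WT to 0.939, 1.16 and 0 in GαqKO, which is at least 80.8-fold lower against a floor of 3 normalized counts per library. Its WT libraries had 216, 249 and 263 normalized counts. Of the 10 other genes of ceramide and sphingosine turnover, 8 were tested, with 3 higher and 3 lower. Sphk2, a sphingosine kinase, rose from 341.5 ± 24.9 to 514 ± 19.0 normalized counts, and Sgpl1, the lyase that ends the route, fell from 1169 ± 48.8 to 836 ± 74.1 (SD, n = 3 per group), with log2 fold changes of 0.59 and -0.49. Of the exon bases of Sphk2, 44.9% lie inside the spans of the opposite-strand genes Dbp and Rpl18 and 38.1% in their exons, which limits its value.

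Of the other sphingomyelin enzymes and ceramide transfer genes, 3 of 6 were tested, with 1 higher and 2 lower. Samd8, which encodes the ceramide phosphoethanolamine synthase related to Sgms1 and Sgms2, rose from 1013 ± 60.8 to 1319 ± 72.2 normalized counts. Nsmaf, whose product is an adaptor linked to neutral sphingomyelinase activation, fell from 118 ± 20.6 to 63.3 ± 10.4 (SD, n = 3 per group), which gives a log2 fold change of -0.88 (limma adjusted p = 7.43e-04). In glycosphingolipid synthesis, 7 of 11 genes were tested, with 2 higher and 1 lower. Ugcg, the glucosylceramide synthase that competes with Sgms1 and Sgms2 for ceramide, fell from 1654 ± 19.2 to 502 ± 25.99 normalized counts (SD, n = 3 per group), which gives a log2 fold change of -1.72 (limma adjusted p = 8.23e-12). B4galt5, which adds the next sugar, rose from 1735 ± 66.3 to 2311 ± 29.6, which gives a log2 fold change of 0.41.

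All 11 lysosomal glycosphingolipid breakdown genes were tested, with 1 higher and 5 lower. Gm2a, the GM2 activator, fell from 153 ± 24.6 to 59.9 ± 6.60 normalized counts and Neu1, a sialidase, from 354 ± 18.1 to 147 ± 12.5 (SD, n = 3 per group), with log2 fold changes of -1.34 and -1.26. Neu1 lies wholly inside the span of another gene, 1110038B12Rik. Glb1, the lysosomal β-galactosidase, rose from 564 ± 30.9 to 729 ± 39.9, which gives a log2 fold change of 0.37. The remaining 5 genes of this list were not called, and its median log2 fold change was 0.0007. Of the 7 genes for sphingosine 1-phosphate receptors and export, 5 were tested, with 3 higher and 2 lower. Beyond 1 or -1 on the log2 scale were 4 of them, beside 10.2% higher and 10.5% lower over all genes. The receptor gene S1pr3 rose from 4.38 ± 1.16 to 432 ± 3.87 normalized counts and S1pr1 from 36.9 ± 8.48 to 155 ± 23.6 (SD, n = 3 per group), with log2 fold changes of 6.36 and 2.05. The exporter gene Spns2 fell from 262 ± 34.6 to 9.16 ± 1.12 and Mfsd2b from 49.2 ± 0.350 to 23.7 ± 8.54 (SD, n = 3 per group), with log2 fold changes of -4.69 and -1.09. Most exon bases of Mfsd2b (89.7%) lie inside the span of Wdcp, and leaving out 1 library at a time moved its log2 fold change between -1.27 and -0.76.

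**Figure D4:**
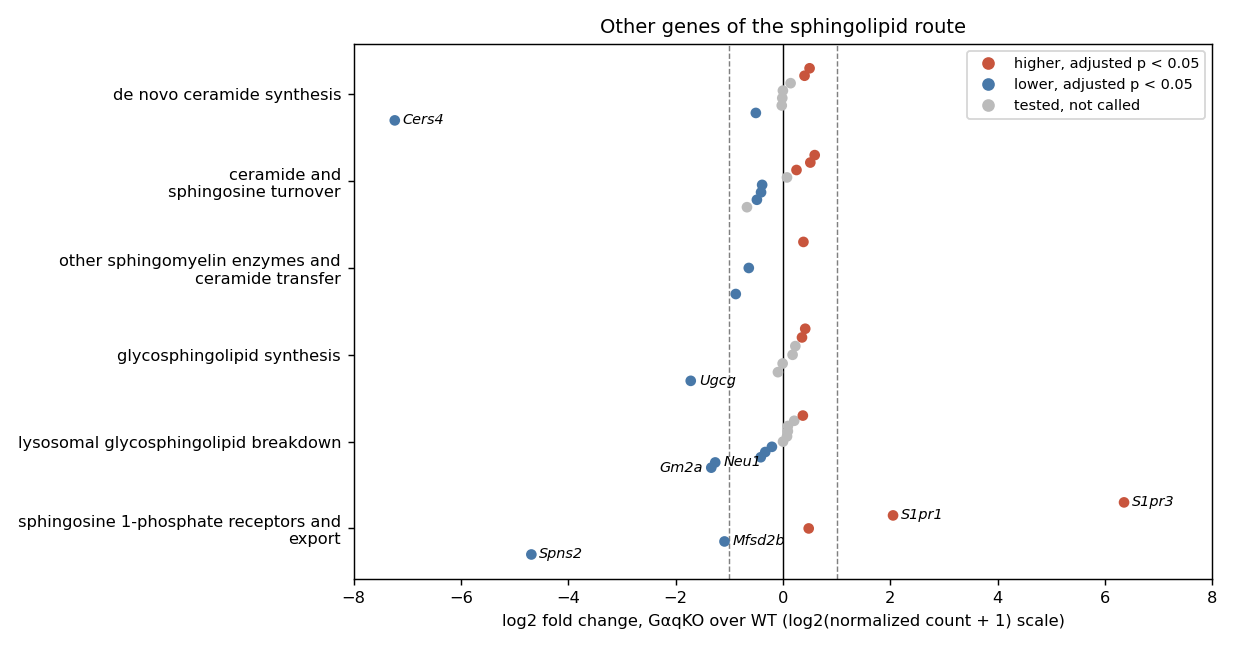
Log2 fold change (GαqKO over WT, log2(normalized count + 1) scale) of the 42 tested genes in the 6 lists of the sphingolipid route, with 1 point per gene, red for genes called higher and blue for genes called lower (limma, adjusted p under 0.05), grey for genes not called, and dashed lines at 1 and -1. The 8 genes past both thresholds are named, from Cers4, whose fitted value rests on the pseudocount because GαqKO is at the floor, to S1pr3 at 6.36.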

How the data were processed

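Total RNA of 3 WT and 3 GαqKO MEF cultures was sequenced after poly-A selection with paired-end reads. Reads were mapped by the authors with Rbowtie2 to GRCm39 and counted per gene with featureCounts and the GENCODE M32 annotation, and DESeq2 was used in R. Tool versions and the strand setting of the counting are not given in the sources used here, and the kit was a stranded one. The deposited values are a signal, gene counts divided by a size factor per library. Samples were grouped by their labels. The methods state 3 biological replicates, and p-values measure only the spread between these samples.

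Identifiers were matched to GENCODE M39 for 56310 of 56953 genes (98.9%), which gave symbols, coordinates and merged exon lengths. A value of 0 in every library was found for 64.9% of the 1161 protein-coding genes with all exons within opposite-strand genes, and for 29.9% of the 8745 with no overlap. Genes that reached 10 normalized counts in 3 or more libraries were fitted with limma on log2(normalized count + 1), allowing a trend of the prior variance, with genotype as the only term and Benjamini-Hochberg adjustment. The thresholds were an adjusted p under 0.05 and, where stated, a log2 fold change over 1 or under -1. Single ratios were compared by exact permutation tests.

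Dividing by the smallest step of a library gave whole numbers within 0.1 reads for 100% of its values above 0 in 5 libraries, so reads were recovered there, and both count tests, edgeR and DESeq2, used these 5 libraries as alternatives. GαqKO replicate 3 was left out of the count tests because its step is too close to 1 for the recovery to be checked. The floor of 3 normalized counts covers counting error only. The other alternatives were TMM scaling, other filters and pseudocounts, limma without a trend, the treat test, a replicate block, another gene length and the omission of each library.

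The members and lists were chosen with earlier results of these data known. Named in the text were all 10 members, Gnaq and Gna11, and from each list the genes past both thresholds and the largest rise and fall among the called genes. Marker genes and genes listed at 0 were named after their values were seen. On simulated data with 200 changed genes, limma recovered 200 among 13681 tested with 7 false calls, edgeR 200 among 13569 with 11, and DESeq2 197 among 22963 with 1. The changed genes all lay above a set WT level, and every simulated gene had the same spread beyond counting error. Recovery of genes with lower counts or a wider spread was not tested. Recovery with as large a share of changed genes as was called here, 31.8% higher and 34.1% lower, was not tested. Recovery of differences as small as those of most members was not tested separately. R 4.3.3 was used with DESeq2 1.42.0, edgeR 4.0.16 and limma 3.58.1, and Python 3.11.15 with pandas 2.3.3, numpy 2.4.6, matplotlib 3.10.9 and scipy 1.17.1.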

Additional observations from a re-analysis of the deposited data

How the results depend on the processing

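Apart from Cers5, every member, named list gene and targeted gene kept its direction and its call in each alternative other than the treat test that gave it a value. None of these changes turned the direction of Cers5. Cers5 lost its call in 6 alternatives, 5 of which are given above, and in limma without a trend its adjusted p was 0.0607. Limma's treat test, stricter by construction, called 0 members higher in place of 1, and 3 list genes lower past the fold threshold in place of 6. Of the list genes higher past that threshold, 1 in place of 2 was called when all libraries had to reach 10 normalized counts and in edgeR on 5 libraries, and from 1 to 2 with each library left out. S1pr3, which has a WT mean of 4.38 normalized counts, was then under the filter without any 1 of the 3 GαqKO libraries. With the longest coding transcript as length, Smpd3 took 31.0% of the sphingomyelinases in WT and 7.61% in GαqKO, Cers2 52.1% and 62.8% of the ceramide synthases, and Sgms2 42.4% and 67.0% of the sphingomyelin synthases. Within the enzyme classes that length turned the order of mean levels for Sgms2 and Sgms1, Cers5 and Cers2, and Smpd3 and Smpd4 in WT, and for Smpd1 and Smpd4 and for Smpd3 and Smpd2 in GαqKO.

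Libraries with the same replicate number did not deviate together (correlations of -0.05, -0.15 and -0.06 across genes), so the values showed no pairing by number. The labels do not say whether cultures with the same number were handled together. With a replicate block 4 members were higher and 6 lower, 12 list genes were higher and 14 lower. TMM scaling moved all genes by 0.01 on the log2 scale. Depth limits genes near the floor, such as Cers4 in GαqKO, and the table does not show transcript isoforms, protein or enzyme activity.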
